A study of Mus musculus with 10 samples.

Results

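The genes described here write, copy, protect or remove DNA methylation: the DNA methyltransferases *Dnmt1*, *Dnmt3a* and *Dnmt3b*, the cofactors *Dnmt3l* and *Uhrf1*, the oxidases *Tet1*, *Tet2* and *Tet3*, and the protective factor *Dppa3*. Their members in the data are all 5 kb windows that the deposited table assigns to 1 of these 9 genes, at the gene start or inside the gene. These are 103 of 544879 windows, of which 225692 are assigned to a gene. H3K4me3 was measured by ULI-nChIP-seq, a native ChIP for few cells, in fully-grown germinal vesicle (GV) oocytes of 21-day-old mice. Both groups carry floxed *Setd1b* alleles on a C57BL/6OlaHsd background. *Setd1b* cKO oocytes (N = 3 libraries, replicates 1, 3 and 4) also carry *Gdf9*-Cre, which is driven by an oocyte promoter and is active from early folliculogenesis, so that *Setd1b* was intact before that stage. WT oocytes (N = 3, replicates 1, 2 and 4) are labelled as floxed without Cre, while the study's methods also allow heterozygous Cre carriers as WT. Each library is a pool of approximately 200 oocytes, so p-values measure the spread between pools.

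H3K4me3 is found at active promoters and CpG islands, and oocytes also gain it over broad domains away from promoters. The de novo enzymes DNMT3A and DNMT3B bind histone H3 through a domain that does not tolerate methylated lysine 4, and oocytes acquire most of their DNA methylation during growth. In the oocyte, DNMT3A acts with its catalytically inactive partner DNMT3L, DNMT1 with UHRF1 copies existing methylation, and TET proteins oxidize 5-methylcytosine. DPPA3 (also known as STELLA) keeps UHRF1 out of the oocyte nucleus and, after fertilization, protects maternal DNA methylation from oxidation. *Dnmt1*, *Dnmt3a* and *Dnmt3l* each have alternative starts. *Dnmt1* has an oocyte-specific first exon upstream of the somatic one, *Dnmt3l* has an oocyte start upstream of the starts used in other cells, and the short isoform DNMT3A2 comes from an internal promoter.

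The promoter pairs of these 3 genes are shown because several results turn on their alternative starts. Sequences are from RefSeq (GRCm38.p6), 250 bases before to 50 after the start, 5′ to 3′ on the gene's strand, with each CG in capitals. Of the 9 genes, 8 had an entry, with 15 promoters in all. The median over the 32851 promoters of this table was 7 CG in 300 bases. The CpG-rich *Dnmt1* start (chr9:20952574-20952873, reverse strand, 33 CG, more than 91.4% of promoters) had 1.42 normalized RPKM of H3K4me3 in WT, close to background, and the upstream start (chr9:20959839-20960138, reverse strand, 2 CG) had 4.70 normalized RPKM in its window.
Dnmt1, CpG-rich start: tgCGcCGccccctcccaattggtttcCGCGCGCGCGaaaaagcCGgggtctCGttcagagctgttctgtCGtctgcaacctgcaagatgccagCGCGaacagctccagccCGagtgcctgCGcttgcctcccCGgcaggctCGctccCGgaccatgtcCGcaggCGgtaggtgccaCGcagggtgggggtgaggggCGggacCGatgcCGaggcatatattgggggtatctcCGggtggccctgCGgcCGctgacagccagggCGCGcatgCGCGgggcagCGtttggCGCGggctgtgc
Dnmt1, upstream start: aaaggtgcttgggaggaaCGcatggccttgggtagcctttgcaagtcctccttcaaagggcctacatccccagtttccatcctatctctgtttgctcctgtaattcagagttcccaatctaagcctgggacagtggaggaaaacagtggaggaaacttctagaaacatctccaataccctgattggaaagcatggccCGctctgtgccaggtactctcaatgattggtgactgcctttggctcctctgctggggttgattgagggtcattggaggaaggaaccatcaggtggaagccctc
The *Dnmt3a* gene start (chr12:3806730-3807029, forward strand) held 46 CG, more than 98.4% of promoters, and the internal start of the short transcripts (chr12:3891494-3891793, forward strand) held 18 CG.
Dnmt3a, gene start: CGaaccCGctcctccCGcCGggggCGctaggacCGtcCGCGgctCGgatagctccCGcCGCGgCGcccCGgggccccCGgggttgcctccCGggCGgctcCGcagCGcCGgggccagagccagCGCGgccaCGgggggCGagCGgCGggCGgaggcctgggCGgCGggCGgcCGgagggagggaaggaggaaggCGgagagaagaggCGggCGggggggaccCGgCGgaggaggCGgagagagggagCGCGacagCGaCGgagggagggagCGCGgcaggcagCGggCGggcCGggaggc
Dnmt3a, internal start: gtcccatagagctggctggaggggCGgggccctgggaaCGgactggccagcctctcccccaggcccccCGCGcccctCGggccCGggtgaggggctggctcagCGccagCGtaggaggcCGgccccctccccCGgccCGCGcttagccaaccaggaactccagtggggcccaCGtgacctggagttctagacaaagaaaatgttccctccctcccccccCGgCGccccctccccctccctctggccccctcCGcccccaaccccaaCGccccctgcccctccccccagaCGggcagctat
The upstream *Dnmt3l* start (chr10:78042037-78042336, forward strand, 6 CG) lay in a window of 7.59 normalized RPKM in WT, and the next start (chr10:78049592-78049891, forward strand, 4 CG) in a window of 1.24 normalized RPKM.
Dnmt3l, upstream start: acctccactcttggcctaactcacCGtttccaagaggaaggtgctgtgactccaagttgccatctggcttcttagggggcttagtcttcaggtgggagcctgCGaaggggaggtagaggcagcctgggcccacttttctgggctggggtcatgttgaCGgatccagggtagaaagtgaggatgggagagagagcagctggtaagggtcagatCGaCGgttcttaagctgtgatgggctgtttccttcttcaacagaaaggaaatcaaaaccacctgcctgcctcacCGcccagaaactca
Dnmt3l, next start: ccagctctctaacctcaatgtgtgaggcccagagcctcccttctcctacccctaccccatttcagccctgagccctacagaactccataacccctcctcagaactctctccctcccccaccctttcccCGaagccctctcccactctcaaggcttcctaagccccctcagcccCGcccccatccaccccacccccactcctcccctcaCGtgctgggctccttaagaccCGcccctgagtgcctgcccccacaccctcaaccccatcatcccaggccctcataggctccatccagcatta

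The deposited values are enrichment-normalized RPKM on a linear scale, set so that the 40th percentile (1.23) and the 99th percentile (6.77) are equal in all libraries. Values near 1.23 are here called background. The libraries held 10856015 to 32775874 reads in windows, with a median of 11 to 47 reads per window. They differed in enrichment: the 99th percentile held 3.47 to 14.3 times the reads of the 40th percentile, lowest in cKO replicates 3 and 4. Pearson's r over all windows, given as a description, was 0.907 to 0.942 within WT and 0.802 to 0.864 within cKO. Of the 5 windows assigned to *Setd1b*, the targeted gene, that from 123145001 to 123150000 on chromosome 5 had 2.17 to 3.25 normalized RPKM in cKO and 7.37 to 9.69 in WT (difference −5.59, limma adjusted p = 0.0124), and the other 4 did not pass the test (differences 0.10 to 0.38, limma adjusted p = 0.588 to 0.919). The position of the floxed part is not given in the sources used here. Markers of oocytes carried H3K4me3 at all 10 gene start windows (WT means 4.69 to 7.79). Markers of immune and blood cells ranged from 0.797 to 2.77 in WT.

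Of the 103 windows, 9 gained H3K4me3 in cKO and 0 lost it (limma, Benjamini-Hochberg adjustment over all windows, adjusted p under 0.05). Over all windows, 0.563% gained and 0.454% lost H3K4me3. The 9 gains were 8 windows of *Dnmt3a* and 1 of *Tet1*, and windows of 1 gene are neighbours, not independent. At an unadjusted p under 0.05 in limma there were 34 windows (14.9% of all windows), 31 higher and 3 lower in cKO. In 36 windows every cKO library was above every WT library (9.88% of all windows), 16 of them in *Tet1* and 11 in *Dnmt3a*, and in 4 windows every cKO library was below (9.95% of all windows). The median difference was 0.393 normalized RPKM over the 103 windows, 0.133 over all windows assigned to a gene and −0.103 over all windows. With edgeR on the recovered reads, 9 windows gained (1.07% of all windows tested) and 0 lost H3K4me3 (1.22% of all), and 7 of these gains were shared with limma. The number of gains by limma was 15 without cKO replicate 1 (1.71% of all windows gained), 5 without cKO replicate 3 (0.234%) and 0 without cKO replicate 4 or any 1 WT replicate. It was also 0 on the log2(value + 1) scale. The plot of window differences shows how unevenly the genes contributed.

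**Figure D1:**
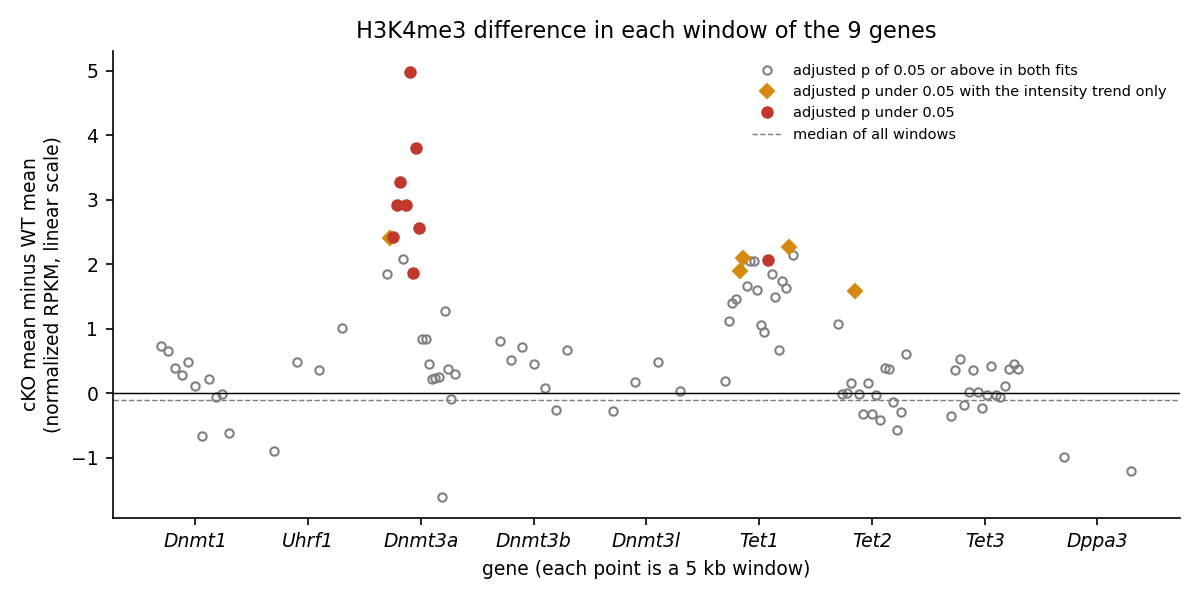
Difference in H3K4me3 (cKO mean minus WT mean, normalized RPKM) in each of the 103 windows, grouped by gene, in genome order within a gene. Filled red points are the 9 windows with adjusted p under 0.05 from limma (8 in *Dnmt3a*, 1 in *Tet1*), diamonds the 5 added by an intensity trend, and the dashed line is the median of all windows (−0.103). The median of the windows assigned to a gene, not drawn, was 0.133.

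*Dnmt3a* encodes the main de novo methyltransferase of oocytes. It lies on chromosome 12 from 3806007 to 3914443 on the forward strand, with 18 annotated transcripts and 22 windows. H3K4me3 rose in a stretch inside the gene, where the called windows begin at 3815001 and end at 3860000. The largest difference was in the window from 3840001 to 3845000, which is intronic in the annotated transcripts and holds 52 CpGs. Values, in the order of replicates 1, 3 and 4 for cKO and 1, 2 and 4 for WT here and throughout, were 6.55, 7.04 and 4.99 normalized RPKM in cKO and 1.44, 0.937 and 1.26 in WT. The WT libraries were at background there, and no cKO library was below 4.99. The difference was 4.98 (standard error 0.508, limma adjusted p = 0.0124). The reads behind these values were 104, 61 and 118 in cKO and 12, 10 and 32 in WT (log2 fold change 2.59, edgeR adjusted p = 6.41e-06).

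The window from 3850001 to 3855000 had 5.28, 5.45 and 4.99 normalized RPKM in cKO and 1.86, 0.937 and 1.53 in WT. The groups lay apart, and the difference was 3.80 (standard error 0.368, limma adjusted p = 0.0109). The window from 3825001 to 3830000 had 4.22, 4.66 and 4.75 in cKO and 1.28, 1.52 and 1.02 in WT (difference 3.27, limma adjusted p = 0.013). In both windows the cKO libraries lay close to each other, although they differed in depth and enrichment.

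Next to it, the window from 3820001 to 3825000 had 3.61, 4.27 and 3.74 normalized RPKM in cKO and 1.07, 1.03 and 0.749 in WT (difference 2.92, limma adjusted p = 0.0145). In the window from 3855001 to 3860000, values were 3.72, 3.74 and 3.88 in cKO and 1.54, 0.84 and 1.29 in WT (difference 2.56, limma adjusted p = 0.0194). These windows held no annotated exon or start of *Dnmt3a*, and exons and starts of other genes were not counted. The window from 3815001 to 3820000, also intronic, had 4.28, 4.53 and 3.69 in cKO and 1.44, 2.01 and 1.80 in WT (difference 2.42, limma adjusted p = 0.0259). The window from 3845001 to 3850000 holds the start of the non-coding transcript Dnmt3a-215, and its values were 3.50, 2.55 and 2.77 in cKO and 1.12, 0.937 and 1.17 in WT (difference 1.86, limma adjusted p = 0.0481). In each of these windows the groups lay apart.

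The remaining called window differed in its starting level. From 3835001 to 3840000, WT already had 3.32, 3.37 and 4.53 normalized RPKM, and cKO had 5.78, 7.70 and 6.48 (difference 2.91, limma adjusted p = 0.0399). This window was not called by edgeR (log2 fold change 0.62, adjusted p = 0.639). Its neighbour from 3830001 to 3835000 was the highest internal window of the stretch in WT, with 5.47, 5.996 and 4.62, against 7.72, 5.85 and 8.75 in cKO, and it overlapped between groups (difference 2.08, limma adjusted p = 0.171). The window from 3810001 to 3815000 had 4.72, 7.17 and 4.94 in cKO and 3.43, 3.66 and 2.55 in WT, and was called with an intensity trend (limma adjusted p = 0.0986 without the trend and 0.0487 with it), with the replicate number as a block (0.00441) or without cKO replicate 1 (0.0473).

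Averaged over these 10 windows, from 3810001 to 3860000, a stretch chosen after its values were seen and so given without a test, H3K4me3 was 4.94, 5.30 and 4.90 normalized RPKM in cKO and 2.197, 2.12 and 2.05 in WT. In the next 6 windows, from 3860001 to 3890000, it was 1.32, 2.18 and 1.87 in cKO and 1.19, 1.39 and 1.37 in WT. The first of these, from 3860001 to 3865000, holds the starts of Dnmt3a-208 and of an antisense transcript, and had 1.89, 2.55 and 1.33 in cKO and 1.12, 0.937 and 1.199 in WT (limma adjusted p = 0.353). After the internal start, the last 4 windows had means of 1.01, 1.43 and 2.13 in cKO and 1.06, 1.13 and 0.98 in WT. Upstream, the 4 windows from 3785001 to 3805000 were not called (limma adjusted p = 0.290 to 0.841), and WT values there already ranged from 2.01 to 5.68. In 1 of them, from 3795001 to 3800000, every cKO library was above every WT library (3.50, 6.25 and 3.78 in cKO, and 3.16, 2.01 and 3.39 in WT, difference 1.66), so that the stretch had no clear edge on the side of the gene start.

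**Figure D2:**
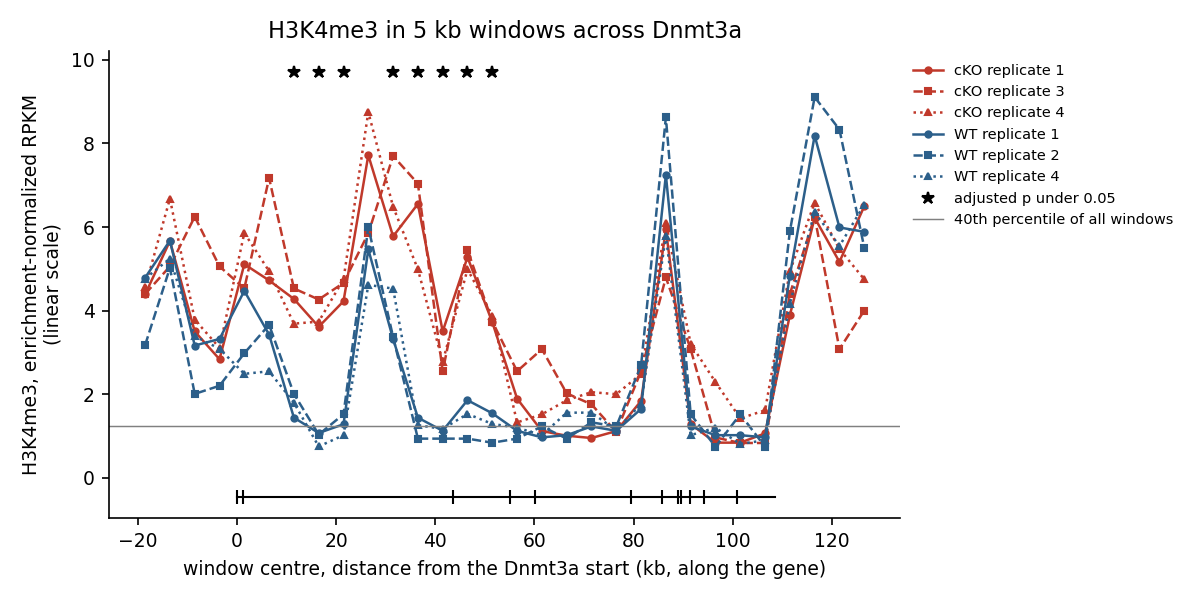
H3K4me3 (normalized RPKM, linear scale) in 5 kb windows from 20 kb before to 20 kb after *Dnmt3a*, against the distance of the window centre from the gene start in kb. Each line is 1 library (red cKO, blue WT), stars mark the 8 windows with adjusted p under 0.05, the bar below is the gene with its annotated starts, and the grey line is the 40th percentile of all windows (1.23). The cKO lines lie apart from WT inside the gene and meet WT again before the internal start.

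The gene start and the internal start of *Dnmt3a* were not called. The gene start window from 3805001 to 3810000 (321 CpGs) had 5.11, 4.53 and 5.86 normalized RPKM in cKO and 4.47, 2.98 and 2.49 in WT. Every cKO library was higher, but the difference of 1.85 did not pass the test (standard error 0.546, limma adjusted p = 0.139). The window of the internal start, from 3890001 to 3895000, was the highest of the gene in WT, with 7.25, 8.62 and 5.79 against 5.94, 4.79 and 6.10 in cKO. Here the groups overlapped (difference −1.61, standard error 0.656, limma adjusted p = 0.283). It was the largest difference toward lower H3K4me3 among the 103 windows. Internal minus gene start, the value was 0.832, 0.264 and 0.241 in cKO and 2.77, 5.64 and 3.30 in WT, a description with no test: in WT the internal start stood well above the gene start in each library, and in cKO the starts were close to each other.

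As a gene mean over its 22 windows, *Dnmt3a* had 3.29, 3.68 and 3.67 normalized RPKM in cKO and 2.05, 2.08 and 1.86 in WT. It was the 1 gene mean of 9 that was called (difference 1.55, standard error 0.201, limma adjusted p = 0.0307 over 26309 genes), where 1.15% of all gene means rose and 0.452% fell. Without the gene start window the difference was 1.54 (limma adjusted p = 0.0318). On summed reads the gene was not called (log2 fold change 0.74, edgeR adjusted p = 0.107; 0.0156% of gene means rose and 0.00782% fell by edgeR), and adjusted p from limma was 0.0316 without cKO replicate 1 and up to 0.153, with no call, without any other single library.

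*Dnmt3b*, the second de novo methyltransferase, stayed near background (chromosome 2 from 153649450 to 153687730, forward strand, 7 windows with WT means of 0.85 to 2.22). Its gene start window, which the table assigns to 7530422B04Rik, had 1.40, 2.95 and 2.72 normalized RPKM in cKO and 1.70, 1.42 and 1.32 in WT, overlapping between groups (difference 0.87, limma adjusted p = 0.401). The window after it, also assigned to 7530422B04Rik, had 1.12, 2.55 and 2.29 in cKO and 1.02, 0.742 and 0.929 in WT, with no overlap (difference 1.09, limma adjusted p = 0.257). Among the 7 windows assigned to *Dnmt3b*, the largest difference was 0.81 in the window from 153655001 to 153660000 (limma adjusted p = 0.368) and the lowest −0.25 from 153680001 to 153685000 (limma adjusted p = 0.705). The highest WT window was the last of the gene, from 153685001, with 2.17, 2.10 and 2.40 in WT and 2.62, 2.42 and 3.64 in cKO. The gene mean was higher in every cKO library (1.38, 1.68 and 1.70 against 1.15, 1.10 and 1.23), and the difference of 0.43 was not called (limma adjusted p = 0.245).

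*Dnmt1*, the maintenance methyltransferase, lies on chromosome 9 from 20907209 to 20959888 on the reverse strand, with 11 windows. H3K4me3 marked its upstream start and not its CpG-rich start. The gene start window from 20955001 to 20960000, with Dnmt1-202, had 3.00, 4.13 and 5.09 normalized RPKM in cKO and 5.10, 3.95 and 5.04 in WT, and the groups overlapped (difference −0.62, limma adjusted p = 0.561). The window from 20950001 to 20955000 holds 4 annotated starts and 114 CpGs, and had 1.51, 1.10 and 1.61 in cKO and 1.39, 1.23 and 1.65 in WT (difference −0.02, limma adjusted p = 0.986). The other 9 windows had WT means of 0.967 to 1.65. The largest positive difference was 0.73, from 20905001 to 20910000 (limma adjusted p = 0.396), and the largest negative difference was −0.67, from 20935001 to 20940000, where cKO had 1.06, 0.701 and 0.891 and WT 1.39, 1.91 and 1.38 (limma adjusted p = 0.3997). None of the 11 windows passed the test, with adjusted p from 0.396 to 0.986. The gene mean was 1.78 ± 0.381 in cKO and 1.65 ± 0.0619 in WT (SD, n = 3).

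*Uhrf1* encodes the factor that brings DNMT1 to hemimethylated DNA. Its gene start window (chromosome 17, from 56300001 to 56305000, assigned to Arrdc5, 174 CpGs) was the highest of the 9 gene start windows in WT, with 9.18, 7.26 and 6.68 normalized RPKM, against 6.61, 5.59 and 6.73 in cKO. The lowest WT library was below the highest cKO library, and the difference of −1.40 did not pass the test (standard error 0.612, limma adjusted p = 0.319). The following window, from 56305001 to 56310000, had 2.17, 1.76 and 2.00 in cKO and 2.85, 3.08 and 2.70 in WT, with no overlap (difference −0.90, limma adjusted p = 0.232). At the end of the gene, from 56320001 to 56325000, the order was opposite, with 1.51, 2.42 and 2.05 in cKO and 1.33, 0.353 and 1.26 in WT (difference 1.01, limma adjusted p = 0.278).

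*Dnmt3l* encodes the cofactor that stimulates DNMT3A. H3K4me3 lay in the window of its upstream start, from 78040001 to 78045000 on chromosome 10, which the table assigns to Aire. Within a 5 kb window, signal of the *Dnmt3l* start and signal of Aire cannot be told apart. Values were 5.72, 5.19 and 5.71 normalized RPKM in cKO and 8.71, 6.39 and 7.67 in WT. All cKO libraries were lower than all WT libraries, with the largest difference of the 9 gene start windows (−2.05, standard error 0.538, limma adjusted p = 0.103, 0.057 with the trend), and it did not pass the test. The 4 windows assigned to *Dnmt3l* were at background (WT means 0.83 to 1.24). Among them, the largest positive difference was 0.48 from 78055001 (limma adjusted p = 0.541) and the largest negative difference −0.27 from 78045001 (limma adjusted p = 0.704), which also had the highest WT mean. The window of the upstream start exceeded that of the next start by 4.82, 3.83 and 5.06 in cKO and by 7.64, 4.86 and 6.53 in WT.

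*Tet1*, an oxidase of 5-methylcytosine, had higher means in cKO in every window assigned to it, although 1 window passed the test. The gene lies on chromosome 10 from 62804570 to 62908996 on the reverse strand. All 20 windows assigned to it had a higher mean in cKO (43.7% of all windows), with differences of 0.18 to 2.26, and in 16 the groups did not overlap. Of the 22 windows over the gene, 2 are not assigned to it. On recovered reads the window from 62875001 was slightly lower in cKO (edgeR log2 fold change −0.06). In *Dnmt3a*, 11 of 22 windows had a WT mean under the 40th percentile of all windows. In *Tet1* there were 0, and WT means ranged from 1.24 to 5.27. The window from 62860001 to 62865000 was called: it had 4.28, 5.06 and 4.60 normalized RPKM in cKO and 2.33, 2.59 and 2.82 in WT (difference 2.07, standard error 0.357, limma adjusted p = 0.035). On reads (63, 46 and 110 in cKO, and 29, 27 and 84 in WT) this window was not called (log2 fold change 0.75, edgeR adjusted p = 0.406).

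With an intensity trend, 14 windows of the 9 genes gained (1.57% of all windows) and 0 lost H3K4me3 (2.01% of all windows), and 3 of the added gains were in *Tet1*. From 62820001 to 62825000, cKO had 2.62, 3.61 and 3.16 normalized RPKM and WT 1.75, 0.645 and 1.32 (difference 1.89, limma adjusted p = 0.065, 0.00904 with the trend, 0.00755 from edgeR). From 62890001 to 62895000, cKO had 3.06, 5.98 and 2.87 and WT 1.86, 1.72 and 1.56 (difference 2.26, limma adjusted p = 0.161, 0.0267 with the trend, 0.0459 from edgeR). Replicate 3 was far above the other cKO libraries in that window. From 62825001 to 62830000, cKO had 4.00, 5.32 and 4.75 and WT 2.01, 2.49 and 3.27 (difference 2.10, limma adjusted p = 0.0634, 0.0496 with the trend, 0.411 from edgeR). The smallest difference of the gene, 0.18, was in its last window, from 62800001, and the highest WT window, from 62875001 to 62880000, had 5.31, 4.63 and 5.87 in WT and 6.05, 7.04 and 4.75 in cKO, overlapping between groups.

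The gene start window of *Tet1*, from 62905001 to 62910000, is assigned to no gene, and had 2.95, 4.27 and 4.56 normalized RPKM in cKO and 2.28, 1.23 and 2.22 in WT. The groups did not overlap (difference 2.02, standard error 0.491, limma adjusted p = 0.0842, 0.0308 with the trend). The adjoining window upstream of the gene, which is not counted among the 103, had 5.72, 7.70 and 5.91 in cKO and 3.48, 3.17 and 3.24 in WT (difference 3.15, limma adjusted p = 0.0297). It held the largest difference across the *Tet1* locus and its 20 kb flanks. The gene mean was 4.38, 5.25 and 4.04 in cKO and 2.94, 2.72 and 3.30 in WT (difference 1.57, standard error 0.345), close to that of *Dnmt3a*, and it was not called (limma adjusted p = 0.0708). The spread between cKO libraries was larger in *Tet1* (SD 0.621) than in *Dnmt3a* (SD 0.223).

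**Figure D3:**
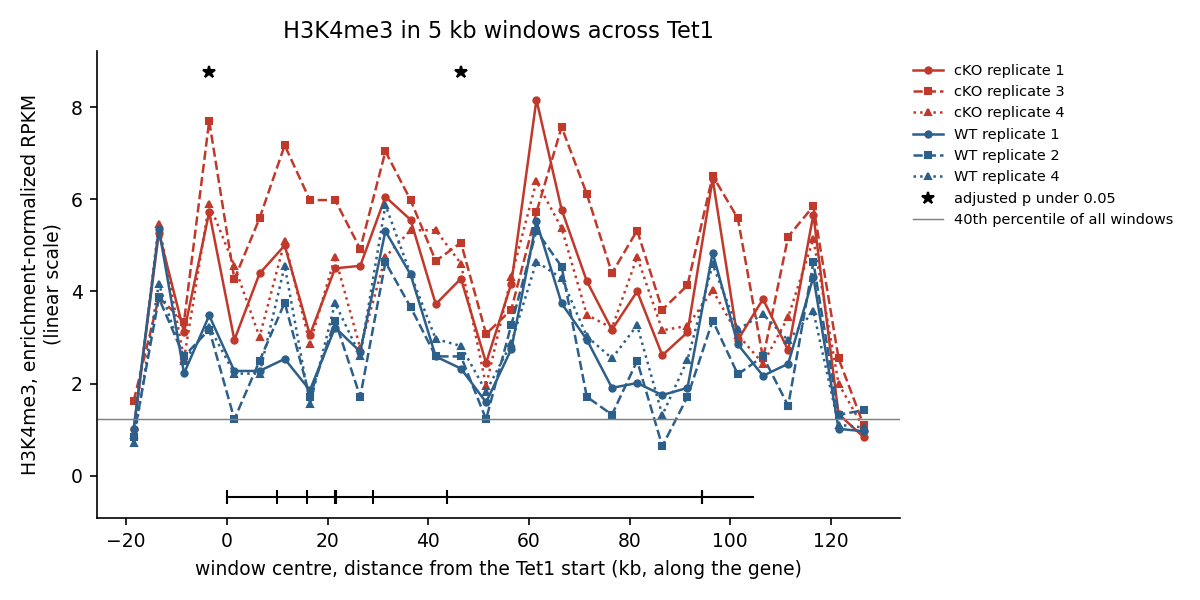
H3K4me3 (normalized RPKM, linear scale) in 5 kb windows from 20 kb before to 20 kb after *Tet1*, against the distance of the window centre from the gene start in kb along the gene. Each line is 1 library (red cKO, blue WT), stars mark the windows with adjusted p under 0.05, of which 1 is in the gene and the other lies upstream of it, and the bar below is the gene with its annotated starts. The cKO lines run above the WT lines along most of the gene, and no stretch is set apart as in *Dnmt3a*.

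*Tet2*, a second oxidase (chromosome 3 from 133463679 to 133545139, reverse strand, 17 windows), carried H3K4me3 at its start in both genotypes. From 133545001 to 133550000, the window of the gene start had 6.61, 5.59 and 6.77 normalized RPKM in cKO and 7.04, 5.80 and 6.02 in WT (difference 0.04, standard error 0.459, limma adjusted p = 0.976). The window from 133480001 to 133485000, which holds the start of a non-coding transcript, had 2.73, 4.00 and 3.11 in cKO and 1.80, 1.42 and 1.86 in WT. The groups did not overlap there, and the difference of 1.58 was not called (limma adjusted p = 0.0951, 0.0475 with an intensity trend and 0.0436 without cKO replicate 1). The highest WT window assigned to the gene, from 133530001 to 133535000, was intronic, with 6.93, 5.90 and 6.17 in WT and 6.39, 4.40 and 6.48 in cKO. Its difference of −0.58 was also the most negative of the gene (limma adjusted p = 0.605).

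*Tet3*, the oxidase that acts in the zygote (chromosome 6 from 83362373 to 83459084, reverse strand), had its H3K4me3 at the gene start. At the gene start, the window from 83455001 to 83460000 (221 CpGs, assigned to no gene) had 2.84, 3.21 and 3.25 normalized RPKM in cKO and 4.26, 5.61 and 3.66 in WT. Again all cKO libraries were lower, and the difference of −1.41 did not pass the test (standard error 0.487, limma adjusted p = 0.202). The 16 windows assigned to *Tet3* had WT means of 0.80 to 2.05, of which 11 were under the 40th percentile. The highest of them, from 83440001 to 83445000, holds the other annotated starts and had 2.50, 2.55 and 2.24 in cKO and 1.65, 2.69 and 1.83 in WT. The largest differences among the 16 were 0.53 from 83375001 (limma adjusted p = 0.491) and −0.36 from 83365001 (limma adjusted p = 0.633).

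*Dppa3* is short (chromosome 6 from 122626410 to 122630272, forward strand), so that its 2 windows cover the whole gene, and both were marked. At its start, the window from 122625001 to 122630000 had 3.67, 4.93 and 5.28 normalized RPKM in cKO and 6.83, 5.51 and 4.53 in WT, overlapping between groups (difference −0.996, standard error 0.607, limma adjusted p = 0.491). The window from 122630001 to 122635000 had 5.28, 5.19 and 4.12 in cKO and 6.04, 6.68 and 5.49 in WT, with no overlap (difference −1.21, limma adjusted p = 0.235). *Dppa3* had the highest gene mean of the 9 genes in WT (5.84 ± 0.746, SD, n = 3), against 4.74 ± 0.295 in cKO (difference −1.10, limma adjusted p = 0.171), and was the single gene with a lower gene mean in cKO.

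Side by side, 0 of the 9 gene start windows were called by limma (1.53% of gene start windows over all genes) and 0 by edgeR, while 2 higher (10.8% of all gene start windows) and 3 lower ones (8.86%) had unadjusted p under 0.05 in limma. With an intensity trend, 1 was called, that of *Tet1* (3.78% of all gene start windows). Of the 9, 4 were higher in cKO and 5 lower, and in 4 the groups did not overlap: *Dnmt3a* and *Tet1* above (12.7% of all gene start windows), *Dnmt3l* and *Tet3* below (9.38%). In WT their order from high to low was *Uhrf1*, *Dnmt3l*, *Tet2*, *Dppa3*, *Dnmt1*, *Tet3*, *Dnmt3a*, *Tet1* and *Dnmt3b*, and the WT libraries of neighbours in this order overlapped, except for *Dnmt3a* and *Tet1*. For 6 of the 9 genes the gene start window is assigned to a neighbour or to no gene, and so lies outside the 103 windows. Over all 37 windows with an annotated start of any transcript of these genes, 1 was called, that of Dnmt3a-215, and 4 with an intensity trend. The share over the transcript start windows of all genes was not computed.

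**Figure D4:**
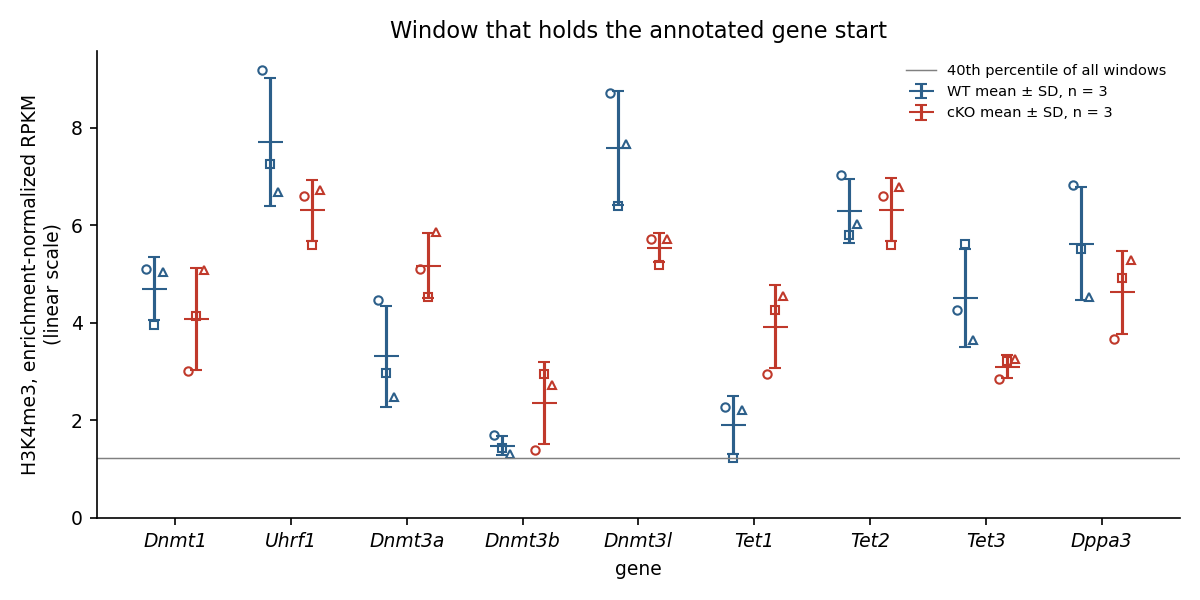
H3K4me3 (normalized RPKM, linear scale) in the window that holds the annotated start of each of the 9 genes. Open symbols are single libraries (blue WT, red cKO), bars are mean ± SD with n = 3, and the grey line is the 40th percentile of all windows (1.23). *Dnmt3l* and *Tet3* lie lower and *Dnmt3a* and *Tet1* higher in every cKO library, and none of the 9 passed the test.

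**Figure D5:**
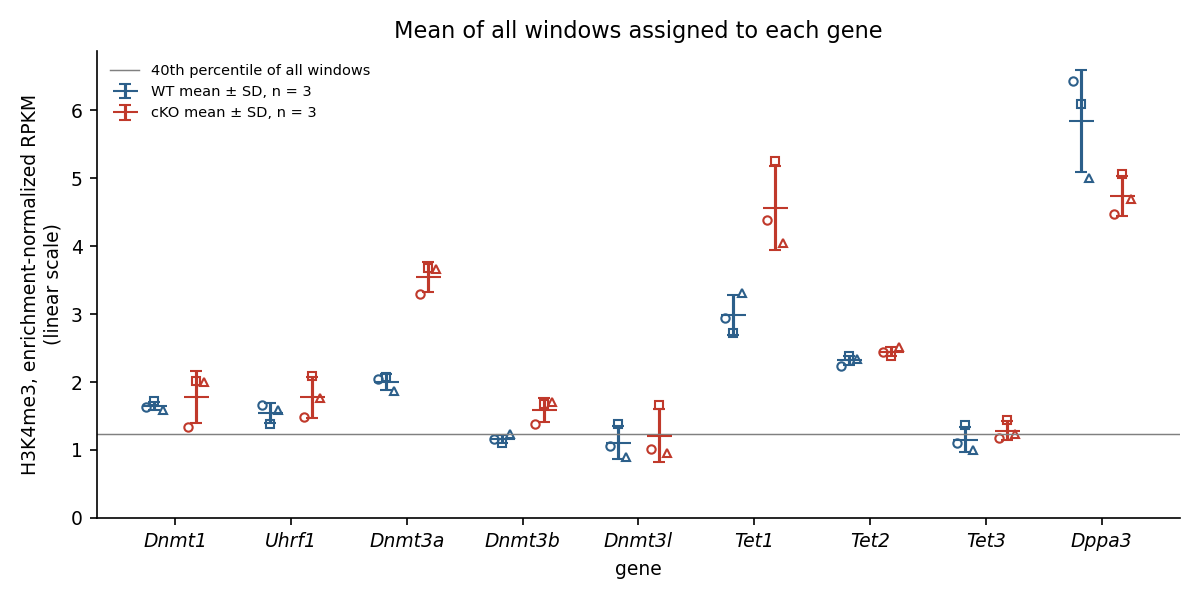
Mean H3K4me3 (normalized RPKM, linear scale) over all windows assigned to each gene, with the same symbols. *Dnmt3a* (3.55 in cKO, 2.00 in WT) was called, *Tet1* (4.56 and 2.99) was not, and the grey line is the 40th percentile of all windows (1.23).

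At the 9 called windows the input libraries, sequenced without precipitation, ranged from 1.28 to 3.15 (reads per window scaled to library size), with a mean of 2.08 in cKO and 2.39 in WT (1.88 in both over all windows). Markers of granulosa cells, which surround the oocyte, summed higher in cKO, and the sums of immune and blood cell markers overlapped between groups. Summed over the gene start windows of 10 granulosa cell markers, H3K4me3 was 38.7 to 41.2 normalized RPKM in cKO and 33.2 to 33.5 in WT, and it was higher in cKO in 9 of the 10 genes. 1 of them was called (1.53% of all gene start windows), *Foxl2*, a transcription factor of granulosa cells (7.06 in cKO, 4.21 in WT, limma adjusted p = 0.0415, edgeR adjusted p = 0.744), and the largest negative difference was *Nr5a1* (−1.28). In WT, 1 of the 10 was under the 40th percentile of all windows. Summed over the 10 oocyte markers, it was 54.2 to 56.2 in cKO and 59.7 to 66.4 in WT, with 8 lower in cKO, 6 of them without overlap (9.38% of all gene start windows), and 0 called by limma (1.53%) or edgeR. At an unadjusted p under 0.05 in limma, 1 was higher (10.8% of all gene start windows) and 6 were lower (8.86%). Immune and blood cell markers summed to 6.89 to 11.5 in cKO and 7.96 to 9.71 in WT over 6 genes, with 0 of the 6 called, and the highest cKO mean was 2.97, for *Lyz2*. Whether other cells or the enrichment of the libraries had a part in the gains of *Dnmt3a* and *Tet1* was not tested. In a pool of oocytes, more marked cells and more H3K4me3 per cell cannot be told apart.

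Among 50 further genes of the pathway, in 5 lists, 0 gene start windows were called by limma (1.53% of all gene start windows) and 0 by edgeR, with 7 higher (10.8% of all gene start windows) and 7 lower (8.86%) at an unadjusted p under 0.05 in limma. The median difference was 0.15 normalized RPKM against −0.01 over all gene starts, and its sign was opposite on recovered reads (median log2 fold change −0.13 from edgeR). With an intensity trend, *Usp7*, which encodes a deubiquitinase that binds DNMT1 and UHRF1, was called as lower (6.77, 5.32 and 5.95 in cKO, and 8.40, 10.7 and 6.89 in WT, difference −2.64, limma adjusted p = 0.150, 0.0153 with the trend). It belongs to 9 partners in maintenance and imprint protection, of which 6 were lower in cKO (7 by the sign of the edgeR log2 fold change on recovered reads). The largest positive difference in this list was that of *Ehmt2*, an H3K9 methyltransferase (5.65 in cKO, 4.04 in WT, limma adjusted p = 0.0656). Of 9 methyl-CpG readers and related proteins, 2 were lower in cKO (5 on recovered reads). Here *Zbtb4*, a zinc finger protein that binds methylated CpG, differed most (5.94, 6.77 and 5.47 in cKO, and 3.58, 4.54 and 3.27 in WT, difference 2.27, limma adjusted p = 0.0523).

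Of 14 genes of cytosine deamination and base excision repair, 6 were lower in cKO (11 on recovered reads). The extremes were *Gadd45b* (difference 1.32, limma adjusted p = 0.248) and the DNA glycosylase *Neil2*, which was below WT in every cKO library (7.57 against 8.98, limma adjusted p = 0.185). Of 10 chromatin regulators that guide de novo methylation, 3 were lower (7 on recovered reads). *Cxxc5*, a CXXC domain protein, had the largest positive difference (1.36) and *Kdm1a*, an H3K4 demethylase, the largest negative difference (−0.68), both overlapping between groups. Of 8 genes of methyl donor metabolism, 4 were lower (6 on recovered reads), and *Ahcy*, which removes S-adenosylhomocysteine, was among the others with a difference of 1.23 (limma adjusted p = 0.164). The lists are described by counts and were not tested as sets.

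The gene starts nearest to each member in level, by root mean square difference over the 6 libraries among 55245 gene starts, were *Rps27l* and *Cd9* for *Dnmt3a*, *Gm44974* and *Acot1* for *Dnmt1*, *Zfp423* and *Ubp1* for *Dnmt3l*, and *Gm38165* and *1700007J10Rik* for *Dnmt3b*. For *Uhrf1* they were *Lrrn4cl* and *Gfer*, for *Tet1* *Gm12397* and *Gm35409*, for *Tet2* *Btaf1* and *Nop53*, for *Tet3* *Mettl7a1* and *Ccdc28b*, and for *Dppa3* *Tmem255b* and *Mex3c*. The differences were 0.159 to 0.459 normalized RPKM.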

How the data were processed

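H3K4me3 ChIP-seq and input libraries of *Setd1b* cKO and WT GV oocytes were analysed from the table of 5 kb windows. Per the labels and methods, the authors trimmed reads (Trim Galore 0.4.2), mapped them to GRCm38 (Bowtie2 2.2.9), removed mappings of MAPQ under 20 and left out windows with an input RPKM above 4. The deposited H3K4me3 values are a score, enrichment-normalized RPKM on a linear scale. The deposited input values are a signal, reads per window scaled to library size. Each value is a whole number of steps (100% of values within 0.05 step), which gave the reads per window. Groups came from the labels.

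Windows were tested with limma 3.58.1 (R 4.3.3, no intensity trend, two-sided, Benjamini-Hochberg adjustment over 544879 windows, adjusted p under 0.05) and gene means likewise over 26309 genes. The gene means are means over the windows assigned to a gene. Alternatives were log2(value + 1), an intensity trend, quantile normalization, a mean of at least 1, the value at 0 reads as a covariate, log2(RPM + 0.5), edgeR 4.0.16 on recovered reads (at least 10 reads), the replicate number as a block, each library left out, other starts, and membership by GENCODE M21 span (chosen after seeing the data). Tests were checked on simulated data. Gene positions were from GENCODE M21 and promoters from RefSeq.

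Named were the gene start window of each gene, every window called by limma with or without the trend, the largest differences in each direction and the highest WT window, and in each list every gene called without the trend and those with the largest positive and negative difference (some are not reported here). The members and lists were chosen with earlier results of these data known. Recovered reads may include duplicates. Transcription and methylation of DNA were not analysed.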

Additional observations from a re-analysis of the deposited data

How the results depend on the processing

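The loss count of 0 windows of the 9 genes held under every alternative run. The count of 9 gains was 0 with log2(value + 1), quantile normalization, a covariate for the value at 0 reads, or log2(RPM + 0.5), and 14 with an intensity trend. It ranged from 0 to 15 when 1 library was left out: 15 without cKO replicate 1, 5 without cKO replicate 3, and 0 without cKO replicate 4 or any single WT replicate. With quantile normalization all windows together gave 1 gain, and with log2(value + 1), the covariate or log2(RPM + 0.5) they gave 0. In the fits that left out cKO replicate 4 or a WT library they also gave 0 gains. The smallest adjusted p among the 103 windows in the fits without gains ranged from 0.0545 to 0.181. The gene start windows called (0) became 1 with an intensity trend and 1 over the starts of any transcript, and ranged from 0 to 1 when 1 library was left out. The gene means called (1) became 0 with log2(value + 1), the covariate, log2(RPM + 0.5) and edgeR, and ranged from 0 to 1 when 1 library was left out, with 1 only without cKO replicate 1. The pathway gene starts called (0) became 1 with an intensity trend, 1 with a mean of at least 1, and ranged from 0 to 1 with 1 library left out.

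With the replicate block, 19 windows gained (2.51% of all windows gained and 3.63% lost), and 3 gene start windows, 4 pathway gene starts (9.2% of all gene start windows) and 0 gene means were called. The groups share only the numbers 1 and 4, whose libraries' deviations correlated at 0.319 and 0.019, so the numbers are not taken to pair the samples.

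Some small differences changed sign. *Dnmt3b* 153680001 became 0.0509 (log2(RPM + 0.5)) and 0.0223 (edgeR). *Tet1* 62875001 became −0.0441, −0.0583 and, with the block, −0.19. *Tet2* 133545001 became −0.20 and −0.24, and *Tet3* 83365001 became 0.00987 (log2(RPM + 0.5)) and 0.00275 (block). Gene means became −0.0543 (quantile) and −0.0277 (edgeR) for *Tet2*, −0.0106 (quantile) and −0.0905 (covariate) for *Dnmt1*, −0.0605 (covariate) for *Dnmt3l* and −0.00192 (block) for *Uhrf1*. With 1 library left out, *Tet1* 62800001 ranged from −0.264 to 0.559, *Tet2* 133530001 from −0.943 to 0.101, *Tet2* 133545001 from −0.208 to 0.41 and the *Dnmt3l* gene mean from −0.122 to 0.235. The causes were not tested. Depth limits single windows, with a median of 11 to 47 reads per window in a library.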

Other observations

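The gene start window of *Gdf9*, an oocyte growth factor whose promoter drives the Cre transgene, had the largest positive difference of the oocyte markers. H3K4me3 was 9.99, 12.6 and 9.52 normalized RPKM in cKO and 7.30, 7.94 and 7.13 in WT (difference 3.24, limma adjusted p = 0.0598 without and 0.000259 with an intensity trend, edgeR adjusted p = 0.905 at a log2 fold change of 0.24). The input in the same window was 3.42 and 3.00 scaled reads in the cKO libraries and 2.17 and 1.85 in the WT libraries. Input was thus higher in both cKO libraries in this window, and its part in the H3K4me3 value was not tested. The largest negative difference among the oocyte markers was that of *Zp2*, which encodes a zona pellucida protein (4.33, 3.87 and 4.17 in cKO, and 8.34, 6.68 and 5.31 in WT, limma adjusted p = 0.0826, 0.0299 with the trend). *Bmp15*, an oocyte growth factor named here after its values were seen, was the other oocyte marker called as lower with the trend (5.67, 5.06 and 5.23 in cKO, and 9.18, 7.46 and 6.74 in WT, limma adjusted p = 0.071 without and 0.0217 with it). Among immune and blood cell markers the largest positive difference was *Adgre1* (0.52) and the largest negative difference *Hbb-bt* (−0.36).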
